A study of Mus musculus with 39 samples.

Results

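The cytosolic ribosomal protein genes are the genes for the protein subunits of the ribosome that translates nuclear messages. They were taken by name from the deposited table, as every row starting Rpl or Rps followed by a digit, together with Rpsa, Rplp0, Rplp1 and Rplp2. Rows named as pseudogenes with -ps and the Rps6k kinases were left out. The rule found 88 of 25219 rows, 35 with small subunit names and 53 with large subunit names, on 19 chromosomes. One of them, Rps19bp1, encodes a protein that binds Rps19 and was kept because its name matches.

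The data are single-cell RNA sequencing of 39 intestinal crypt epithelial cells. The mice carried Lgr5-EGFP-Ires-CreERT2 together with the reporter Rosa-lsl-tdTomato. Tamoxifen was injected 24 h before total body irradiation (TBI) with 10 Gy, and tdTomato+ Sca1- cells were sorted 48 h after the exposure. All cells form 1 group with the same genotype and treatment, and neither unirradiated cells nor cells of another gate were analysed here. The Lgr5 locus drives the recombinase in this line, so tdTomato marks cells in which Lgr5 was active around the injection and their progeny, whatever they express at the sort. No animal is named for any cell, so the 39 cells count as 1 biological sample. Every SD in these results is therefore the spread between cells, no p-value is given, and correlations are descriptions over cells that share library preparation and differ in depth.

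A ribosome is built from a small subunit, which reads the message, and a large subunit, which joins amino acids. Each subunit needs its proteins in about equal numbers of copies, and the genes are scattered over the genome. Their messages typically begin with a run of pyrimidines (C or T), the TOP motif, through which mTOR signalling controls their translation. The intestinal crypt is among the fastest renewing tissues and has a high demand for ribosomes. When ribosome assembly is disturbed, free Rpl5 and Rpl11 bind Mdm2 and release p53, the transcription factor that also answers radiation damage, and Rps27l is a known p53 target.

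The start regions show the pyrimidine run in some of the members, of high as well as of low level. RefSeq start windows (GRCm38.p6) were available for 67 of the 88 members. A run of at least 8 pyrimidines within 20 bases of an annotated start was present in 30 of these 67 genes (44.8%), against 18.4% of all 27025 genes with an entry and 17.3% of 623 other genes averaging 100 FPKM or more. The following windows reach from 15 bases before the annotated start and hold 30 bases in all, and the capitals mark the run. They are shown because they carry the letters by which this gene family is usually recognised.
Rps18, chr17:33955651-33955680, minus strand: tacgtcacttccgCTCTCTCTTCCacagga
Rpl35, chr2:39005117-39005146, minus strand: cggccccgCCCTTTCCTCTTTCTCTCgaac
Rpl14, chr9:120571502-120571531, plus strand: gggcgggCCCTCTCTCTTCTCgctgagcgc
Rps6, chr4:86857353-86857382, minus strand: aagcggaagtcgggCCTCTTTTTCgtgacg
Rpl7a, chr2:26910792-26910821, plus strand: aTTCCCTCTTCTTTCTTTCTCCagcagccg
Rps27l, chr9:66946071-66946100, plus strand: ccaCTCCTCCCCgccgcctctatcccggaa
Rpl22l1, chr3:28805493-28805522, plus strand: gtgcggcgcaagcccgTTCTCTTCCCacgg

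The runs were up to 21 bases long, in Rpl7a, and those shown lie across the annotated start or within a few bases of it. The annotated start can lie some bases from the start used in these cells, and the window of Rpl41, the member of highest level, held no such run. In the full promoter entries, which reach from 250 bases before to 50 bases after the start, the letters CTTCCG, the core of ETS factor sites, were found on either strand in 65.7% of the 67 members. The same letters were in 18.8% of all genes and in 41.7% of the other genes averaging 100 FPKM or more. GCCATC, the core of YY1 sites, was found in 23.9% of members and 15.9% of all genes, and TATAAA in 10.4% and 15.7%. Among the other genes averaging 100 FPKM or more these letters were in 19.6% and 10.8%. These are matches of letters in a window and were not tested for binding.

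Depth on genes ranged from 398418 to 3903971 estimated counts per cell, with a median of 3089188, and 2287 to 5779 genes per cell were at 1 FPKM or more. FPKM, the deposited unit, is the number of fragments per length of transcript, scaled to the fragments of the cell, and its sum over genes ranged from 180244 to 617797 per cell. Of 6 epithelial markers, Epcam, Krt8 and Krt18 were detected in 39 of 39 cells, Cdh1 in 38, Vil1 in 31 and Krt20, a keratin of differentiated cells, in 1, while the leukocyte gene Ptprc and the collagen genes Col1a1 and Col3a1 reached 1 FPKM in 0 of 39. Ly6a, which encodes the sorted-out Sca1, reached 1 FPKM in 4 cells. The cell numbered 9 had the fewest counts, and the cells numbered 79 and 96 held unusually little ribosomal protein RNA. The main values are also given without some of these cells.

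Ribosomal protein genes took up a large part of the messenger RNA of most cells. Their share of the summed FPKM had a median of 17.9% and a SD of 3.41 percentage points over the 39 cells. The lowest share was 6.06%, in cell 79, and the highest 25.6%, in cell 56. The middle of the distribution was narrow, with quartiles at 17.4% and 20.1%, and 37 of the 39 cells lay between 15% and 26%. As a share of estimated counts, where a long transcript weighs more, the median was 8.06%, ranging from 2.67% to 12.3%. For scale, the nuclear genes of oxidative phosphorylation had a median share of 5.56% and the mitochondrial ribosomal proteins 1.47%. The CV of the share over cells was 0.185 for the family, 0.111 for oxidative phosphorylation and 0.189 for mitochondrial ribosomal proteins.

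**Figure D1:**
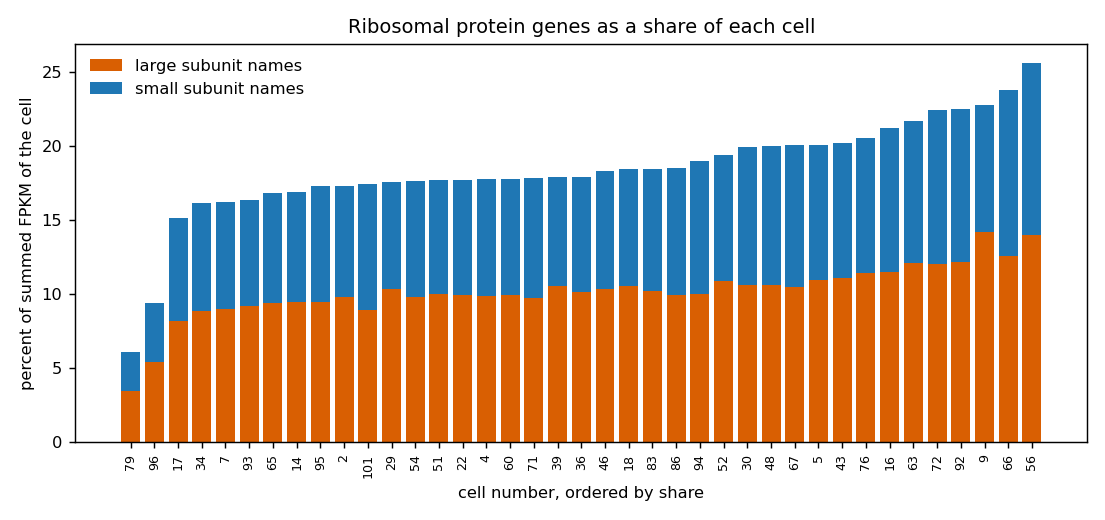
Percent of the summed FPKM of each of the 39 cells held by ribosomal protein genes, with large subunit names (bottom) and small subunit names (top) stacked and cells ordered by their share. Cells 79 (6.06%) and 96 (9.38%) stand below the remaining 37, which lie between 15% and 26%.

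Cells 79 and 96 had the lowest shares. In cell 79, 80 of the 84 members with a mean of at least 10 FPKM were below their own median over cells, and 23 were below 10% of it. In cell 96 the counts were 80 and 13. In cell 9 they were 70 and 27, although its share of 22.8% of the summed FPKM was above the median. Its share of estimated counts, 7.36%, was below the median of 8.06%. Its summed FPKM, 180244, was the lowest, against a median of 491055. The same counts were not made over all rows. Only 2335 genes in cell 79, 2988 in cell 96 and 2287 in cell 9 reached 1 FPKM, against a median of 4609. Cells 79 and 96 were also picked for their low shares. Cell 79 carried Fabp1, a lipid-binding protein of enterocytes, at 40997 FPKM against a median of 0.996 over all cells, and Krt18 at 15406 FPKM against 926. The tuft cell genes Dclk1 and Trpm5 summed to 286 FPKM in cell 79 and 232 FPKM in cell 96, the only 2 cells above 100 FPKM, and Dclk1 reached 1 FPKM in 2 cells and Trpm5 in 3. The 4 enterocyte markers summed to 41006 FPKM in cell 79 and 78.7 FPKM in cell 96, over a range of 0 to 41006 FPKM. In cell 79 this sum was nearly all Fabp1, with Alpi and Apoa4 at 0 and Apoa1 at 8.33 FPKM. Cell 56, with the highest share, had the highest sum of the 5 Paneth cell markers, 12123 FPKM against a median of 263. Defa24, Defa17 and Ang4 were highest in cell 56, at 8338, 3331 and 118 FPKM. Lyz1 and Mmp7 were highest in cell 63, at 1498 and 1471 FPKM. A Paneth sum of at least 100 FPKM was found in 31 cells. The part of these cell type genes in the shares was not tested. Without cells 79 and 96 the median share was 18.3%.

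The summed level of the large subunit was above that of the small subunit in 39 of 39 cells. The ratio of small to large had a median of 0.803 with a SD of 0.0639, the lowest being 0.605 in cell 9 and the highest 0.956. Without cells 9 and 79 the median was 0.807. The large subunit also had more member genes, 53 against 35. Taken per gene, the median small subunit member was above the median large subunit member in every one of the 39 cells, by a ratio of 1.16 in cell 39 to 2.58 in cell 79 with a median of 1.49. The large subunit names include the 3 members at 0 in every cell. Over all members, the median of the means was 1070 FPKM for small and 756 FPKM for large subunit names. Without copies and with a mean of at least 10 FPKM, these medians were 1139 and 892 FPKM. By estimated counts the ratio of the sums was 0.694. Among the 42 members with a mean of at least 1000 FPKM, 21 had small and 21 had large subunit names.

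The members filled the top of the expression range. Of the 50 rows with the highest mean FPKM, 27 were ribosomal protein genes, and of the top 100, 51 were. Means spanned 0 to 4184 FPKM, with a median of 946 FPKM over the 88 members, and 70 members had a mean of at least 500 FPKM. The 10 highest members held 27.9% of the family's summed FPKM.

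**Figure D2:**
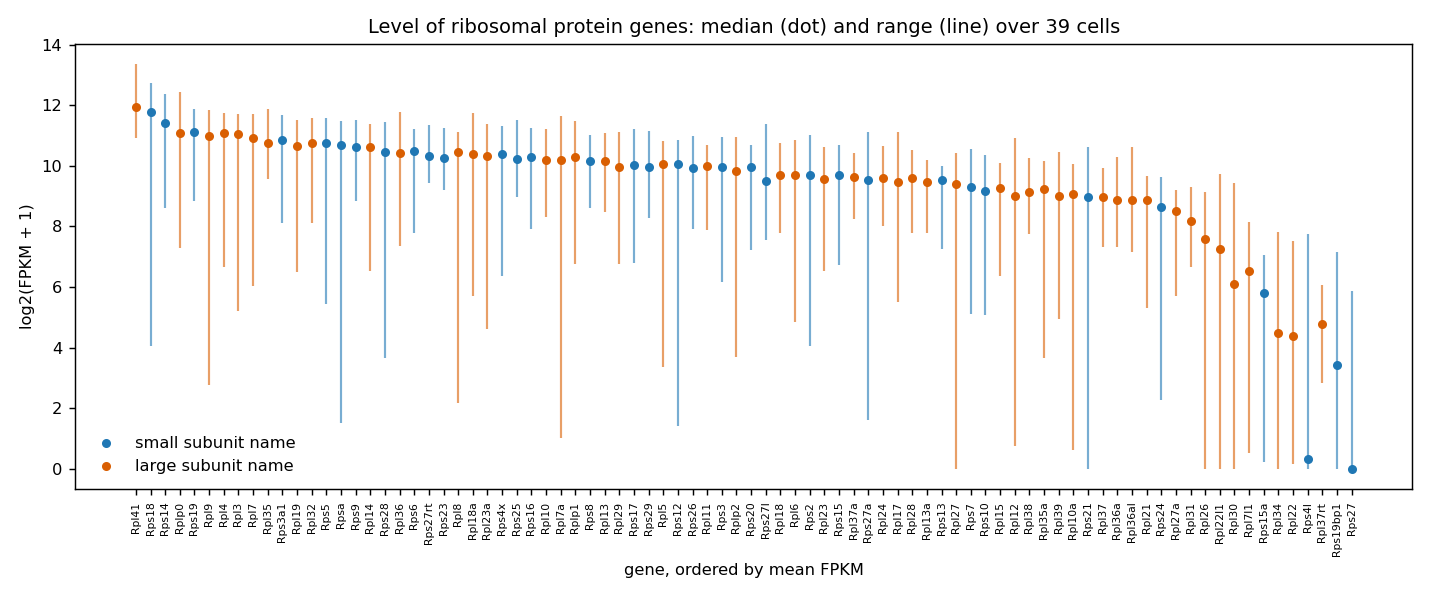
Level of the ribosomal protein genes above 0 in a cell (84 drawn, 1 not reported here), as log2(FPKM + 1), ordered by mean FPKM, with the median as a dot and the lowest to highest cell as a line (blue small subunit names, orange large). Medians fall slowly over most members and then steeply over the last ones, from Rpl26 to Rps27, and many lines reach far down because of 1 or a few cells.

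Rpl41, which encodes the smallest ribosomal protein, had the highest mean, 4184 ± 1496 FPKM (SD, n = 39 cells). Its lowest value was 1921 FPKM, in cell 96, its median 3969 and its highest 10442 FPKM, in cell 63. It was the highest member in 24 of the 39 cells. Rps18, a small subunit protein, followed with 3722 ± 1495 FPKM and was the highest member in 11 cells. It ranged from 15.7 FPKM, in cell 79, through a median of 3516 to 6834 FPKM, in cell 56. Rps14, known for its loss in a form of myelodysplasia, had a mean of 2747 FPKM, a lowest value of 386 in cell 9, a median of 2717 and a highest value of 5263.

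Rps19, the gene most often mutated in Diamond-Blackfan anaemia, averaged 2244 ± 732 FPKM, with a lowest value of 456, a median of 2197 and a highest of 3764. Rpl4 and Rpl3, both long proteins that reach into the core of the large subunit, averaged 2051 and 1993 FPKM, and each fell to its lowest value in a cell that stood apart, Rpl4 to 100.9 FPKM in cell 9 and Rpl3 to 36.3 FPKM in cell 79. Rpl9 averaged 2080 FPKM with a lowest value of 5.79 FPKM in cell 9. Rpl7 averaged 1955 FPKM. By mean estimated counts the order was different. Rplp0, Rpsa, Rpl4 and Rpl3 came first with 10690, 10391, 10309 and 9666 counts per cell, and Rpl41 came 10th with 6375, since its transcript in the table is 449 bases long. The number of the 10 highest members that were also among a cell's own 10 highest had a median of 7 and a lowest value of 2.

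The stalk of the large subunit, which recruits elongation factors, is made of Rplp0 and copies of Rplp1 and Rplp2. Rplp0 averaged 2248 ± 1019 FPKM, from 156 in cell 9 through a median of 2163 to 5492 FPKM. Rplp1 averaged 1226 ± 478 FPKM and ranged from 107 to 2859 around a median of 1256. Rplp2 averaged 971 ± 404 FPKM, from 12.04 to 1967 around a median of 912. Both Rplp1 and Rplp2 were lowest in cell 96. Rpsa, the small subunit protein also known as a laminin receptor precursor, averaged 1610 ± 630 FPKM, and its lowest value, 1.86 FPKM in cell 79, was far from its median of 1637 FPKM.

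Most members were detected in every cell. Between 77 and 85 of the 88 members reached 1 FPKM per cell, with a median of 83, and 71 members did so in all 39 cells. After the counts were thinned to 600000 per cell, which left out 1 cell, the median was again 83. Rpl3l, Rpl10l and Rpl39l were at 0 in all 39 cells, and these are copies known from heart and skeletal muscle for the first and from testis for the others. A value of 0 in 39 of 39 cells allows a share of up to 7.69% of cells with a count in such libraries, which limits cells with a count and not cells that express the gene. Rps27 and Rps4l were below 1 FPKM in more cells than not, at 9 and 18 cells with 1 FPKM or more. Rps19bp1 was detected in 27 cells, Rpl30 in 32, Rpl34 in 35 and Rpl22l1 in 37.

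Rps27, Rpl34, Rpl26 and Rpl30 had low values beside a second row that the table places at the same locus. Rps27 averaged 4.70 FPKM, was above 0 in 11 cells and reached 57.6 FPKM at most, in cell 83. The row Rps27rt, named as a retrogene, lies in the table at the same place, chr3:90212667-90213647, and averaged 1362 ± 405 FPKM, from 688 through a median of 1293 to 2584 FPKM. Rps27rt was above Rps27 in 39 of 39 cells, and Rps27 held 0.619% of the counts of the pair. In the GENCODE M21 annotation of GRCm38, Rps27rt is elsewhere, at chr9:114982366-114982739, while Rps27 is at chr3:90212522-90213651. Their coding sequences are 255 bases each and differ at 0 positions, so reads from this stretch carry nothing that tells the genes apart.

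**Figure D3:**
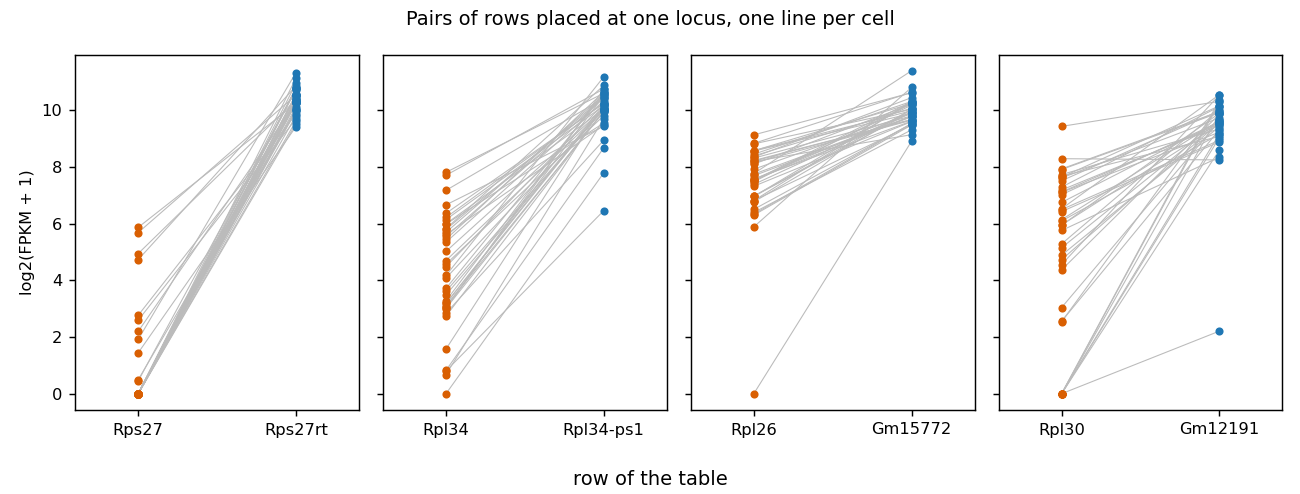
Level as log2(FPKM + 1) of 4 ribosomal protein genes (orange) and of the row placed at the same locus (blue), with 1 grey line per cell. Nearly every line rises from the named gene to the other row, and the Rps27 row is at 0 in 28 of 39 cells.

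The other pairs had the same form. Rpl34 averaged 41.1 FPKM, from 0 through 21.4 to 224, while Rpl34-ps1, outside the rule, averaged 1158 FPKM, and Rpl34 held 5.70% of the pair's counts. Rpl26, a protein known to bind the p53 message, averaged 226 FPKM against 1056 FPKM for Gm15772, with 18.8% of the counts. Rpl30 averaged 104 FPKM against 811 FPKM for Gm12191, with 15.1% of the counts, and was the higher by counts in 1 cell. GENCODE places Rpl34-ps1 on chromosome 6, Gm15772 on chromosome 5 and Gm12191 on chromosome 11, whereas the table gives each the span of the intron-containing gene. Over the coding sequence, Rpl34-ps1 differs from Rpl34 at 2 of 354 bases, Gm15772 from Rpl26 at 2 of 438, and Gm12191 from Rpl30 at 1 of 348.

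The 4 genes were also summed with the row at their locus. Rps27 with Rps27rt averaged 1367 ± 406 FPKM, Rpl26 with Gm15772 1281 ± 443, Rpl34 with Rpl34-ps1 1199 ± 466 and Rpl30 with Gm12191 915 ± 371 FPKM. The coefficient of variation (CV, SD over mean) of Rpl34 was 1.27 alone and 0.388 in the sum, and that of Rpl30 was 1.24 alone and 0.405 in the sum. For all 4 pairs the summed level reached 1 FPKM in 39 of 39 cells. How the estimated counts were divided between such rows is not given in the sources used here, so the values of these 4 members and of the rows beside them, Rps27rt included, are values of a row and not levels of a gene. Summing the pairs moved the small to large ratio to 0.756 and the share to 18.6%.

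Rps15a and Rpl22 were also low per length. Rps15a averaged 58.5 ± 25.3 FPKM with 1060 counts per cell, which put it 79th by FPKM and 70th by counts of the 88 members. The table gives it a transcript of 5134 bases, the longest of all members, against a median of 718 bases. Rpl22 averaged 30.6 FPKM with 266 counts per cell and a transcript of 2497 bases.

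Levels between cells were even compared with other genes of high level. The CV between cells had a median of 0.398 over the 85 members above 0, and of 0.354 without cells 9 and 79, and 70 members had a CV under 0.5. Among rows averaging 100 FPKM or more, the 78 members had a median CV of 0.391 against 0.770 over all 867 rows, and 89.7% of the members were at 1 FPKM or more in all 39 cells against 30.8% of the rows. Since the CV falls with level, the comparison was repeated at a mean of at least 500 FPKM. There the median CV was 0.390 for 70 members and 0.502 for the 100 other rows. The cut left a difference in level, with a median mean of 1074 FPKM for these members and 738 FPKM for the others. The lower quartile of the CV of the other rows was 0.443. Some of them were as even as the members, such as Ppia at 0.346, Cox6b1 at 0.359, Sod1 at 0.360 and Uqcr11 at 0.366. For lists of other genes the cut was lower, at a mean of 100 FPKM. The median CV was 0.469 for the 5 elongation factors, 0.471 for the 4 other TOP messages and 0.580 for oxidative phosphorylation. It was 0.766 for the proteasome and 0.886 for mitochondrial ribosomal proteins. Over all rows of each list, the median mean was 530, 286, 259, 157 and 74.2 FPKM in this order, against 946 FPKM for the family. These lists were therefore not matched to the family in level.

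**Figure D4:**
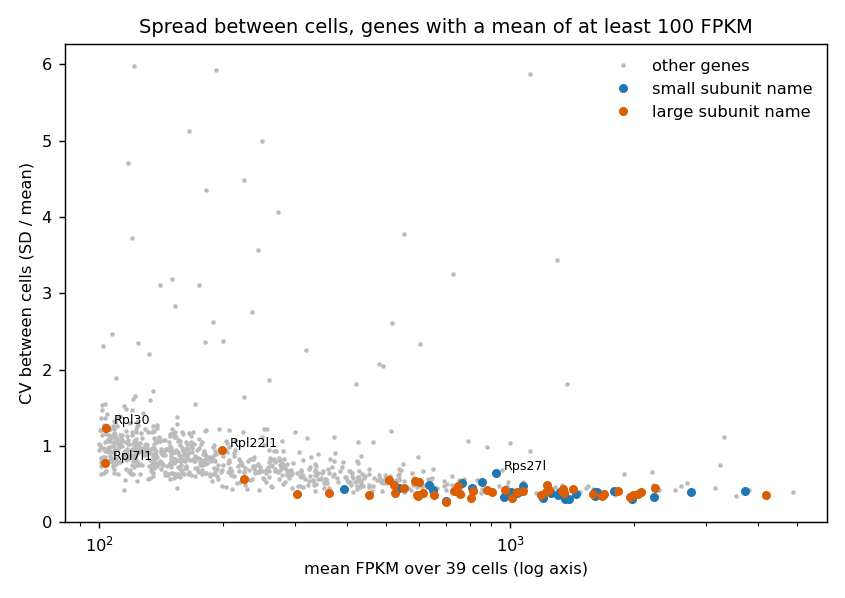
CV between the 39 cells against mean FPKM (log axis) for the 867 genes that averaged 100 FPKM or more, with small subunit names in blue, large in orange and other genes in grey. The 78 ribosomal protein genes have a median CV of 0.391 against 0.770 over all rows, and Rpl30, Rpl22l1, Rpl7l1 and Rps27l lie above the rest of them.

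Rpl13a, Rps13, Rps6 and the row Rps27rt were among the 5 most even members. Rpl13a, a large subunit protein that also takes part in translational silencing, averaged 699 ± 188 FPKM with a CV of 0.269, from 218 in cell 79 through a median of 710 to 1169 FPKM. Rps13 had a CV of 0.277 and ranged from 151 to 1018 FPKM. Rps6, the substrate of S6 kinase downstream of mTOR, averaged 1392 ± 420 FPKM with a CV of 0.302.

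The least even members with a mean of at least 10 FPKM were Rps4l, Rps19bp1, Rpl34, Rpl30 and Rpl22, with CVs of 1.74, 1.51, 1.27, 1.24 and 1.11. Rps4l had a median of 0.251 FPKM and reached 216 FPKM in cell 2, and 10 cells were at 50 FPKM or more. Rps19bp1 had a median of 9.66 FPKM and reached 141 FPKM. Rpl22 had a median of 19.9 FPKM and a highest value of 184 FPKM in cell 51. In the 4 others than Rps4l, the highest cell was 9.25 to 14.6 times the median.

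On the log2(FPKM + 1) scale, where single low values weigh more, the SD between cells had a median of 0.84 over the members. Without cells 9 and 79 it was 0.55. Of the 84 members with a mean of at least 10 FPKM, 31 had their lowest value in cell 9, 26 in cell 79 and 17 in cell 96. A member at 0 in several cells was counted only for the first of them by cell number. High values were less concentrated, with cells 56 and 63 each holding the highest value of 12 members. The rank order of the members in a cell had a median rho of 0.919 with that in the other cells, and a lowest value of 0.487.

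Members tended to be high in the same cells. Spearman's rho over the 39 cells had a median of 0.296 over all 3570 pairs of members above 0, and of 0.306 over pairs with a mean of at least 100 FPKM, against 0.0779 for pairs among all 867 such rows. On FPKM as deposited it was 0.228 over all pairs without cells 9 and 79. With each member as a share of its cell's summed FPKM it was 0.163 over all pairs and all cells. On FPKM as deposited and among members averaging 100 FPKM or more, small subunit pairs had a median of 0.373, large subunit pairs 0.267 and mixed pairs 0.311. On the share scale the medians were 0.201 for small and 0.138 for large subunit pairs. The highest rho apart from near-identical copies was 0.774, between Rpl41 and Rps23, a small subunit protein of the decoding centre. Rpl32 had 0.763 with Rpl41 and 0.738 with Rps23. Depth, capture and the share of reads on genes are common to all genes of a cell and enter these values.

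Of the 78 members averaging 100 FPKM or more, Rpl30, Rpl22l1, Rpl36al and Rpl7l1 followed the others least, with a median rho of 0.0674, 0.0964, 0.103 and 0.108 with the other members. Rps23, Rpl32 and Rpl37 followed them most, with 0.474, 0.459 and 0.445. Members of lower mean, such as Rps4l, Rpl34 and Rps27, were not ranked.

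Rps27l, the copy of Rps27 that p53 is known to induce, was expressed at the level of a core subunit gene. It averaged 926 ± 591 FPKM, from 187 in cell 17 through a median of 717 to 2688 FPKM in cell 92, and its CV of 0.639 was the highest among members with a mean of at least 500 FPKM. Of the 39 cells, 12 were at 1000 FPKM or more. The Rps27rt row was above it in 31 cells and below it in 8. The coding sequences of Rps27, identical to that of Rps27rt, and of Rps27l are shown because they differ at many positions, unlike those of Rps27 and Rps27rt. They are both 255 bases long and agree at 76.1% of positions, and capitals mark the 61 that differ.
Rps27: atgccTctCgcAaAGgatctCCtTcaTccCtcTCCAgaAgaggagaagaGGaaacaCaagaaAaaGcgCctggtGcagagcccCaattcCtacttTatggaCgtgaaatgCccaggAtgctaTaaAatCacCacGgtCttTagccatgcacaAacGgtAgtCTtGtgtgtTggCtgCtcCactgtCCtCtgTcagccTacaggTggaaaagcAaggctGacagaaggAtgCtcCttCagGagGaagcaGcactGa
Rps27l: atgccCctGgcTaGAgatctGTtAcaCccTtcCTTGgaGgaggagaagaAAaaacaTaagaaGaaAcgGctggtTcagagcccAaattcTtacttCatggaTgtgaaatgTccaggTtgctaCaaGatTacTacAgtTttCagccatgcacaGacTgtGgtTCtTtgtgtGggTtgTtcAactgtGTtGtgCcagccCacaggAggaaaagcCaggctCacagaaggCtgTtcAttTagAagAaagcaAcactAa

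Across the 39 cells, rho of Rps27l with 6 readout genes of p53 was 0.641 for Trp53inp1, 0.388 for Cdkn1a, 0.298 for Ccng1, 0.189 for Bax, 0.182 for Phlda3 and 0.182 for Mdm2. Without cells 9 and 79 the values ranged from 0.134 with Bax to 0.639 with Trp53inp1. Trp53inp1 was detected in 11 cells and Cdkn1a in 29. The members that bind Mdm2 were more even than Rps27l. Rpl5 averaged 1039 ± 406 FPKM, from 9.23 in cell 79 through a median of 1054 to 1792 FPKM. Rpl11 averaged 1012 ± 317 FPKM, from 234 in cell 9 through a median of 1024 to 1645 FPKM. Rpl23 averaged 811 ± 328 FPKM, from 91.4 in cell 79 through a median of 756 to 1577 FPKM. Their rho with Mdm2 was -0.173 for Rpl5, -0.0343 for Rpl11 and 0.112 for Rpl23. Over the 6 readout genes rho ranged from -0.173 to 0.105 for Rpl5 and from -0.254 to 0.121 for Rpl11. Without cells 9 and 79 all 6 values of Rpl5 were below 0, from -0.143 to -0.00641, and those of Rpl11 ranged from -0.356 to 0.00522. For Rpl23 rho ranged from 0.108 with Phlda3 to 0.444 with Trp53inp1, and from 0.0408 to 0.413 without cells 9 and 79, so that Rpl23 and Rps27l both had their highest value with Trp53inp1.

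Copies differed in how they compared with the gene they are named for. Rpl22l1 was above Rpl22, which is known to repress it, in 33 of 39 cells per length. Rpl22l1 averaged 199 ± 187 FPKM, from 0 in 2 cells through a median of 151 to 856 FPKM in cell 29, and rho between both was 0.0739. By counts, which do not divide by the transcript length, the sums over all cells were closer, 12951 for Rpl22l1 and 10383 for Rpl22. The rho of Rpl22l1 was below 0 with all 6 p53 readout genes, from -0.381 with Cdkn1a to -0.110 with Phlda3. Without cells 9 and 79 it ranged from -0.537 with Bax to -0.193 with Phlda3, and was -0.526 with Ccng1 against -0.354 over all cells.

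**Figure D5:**
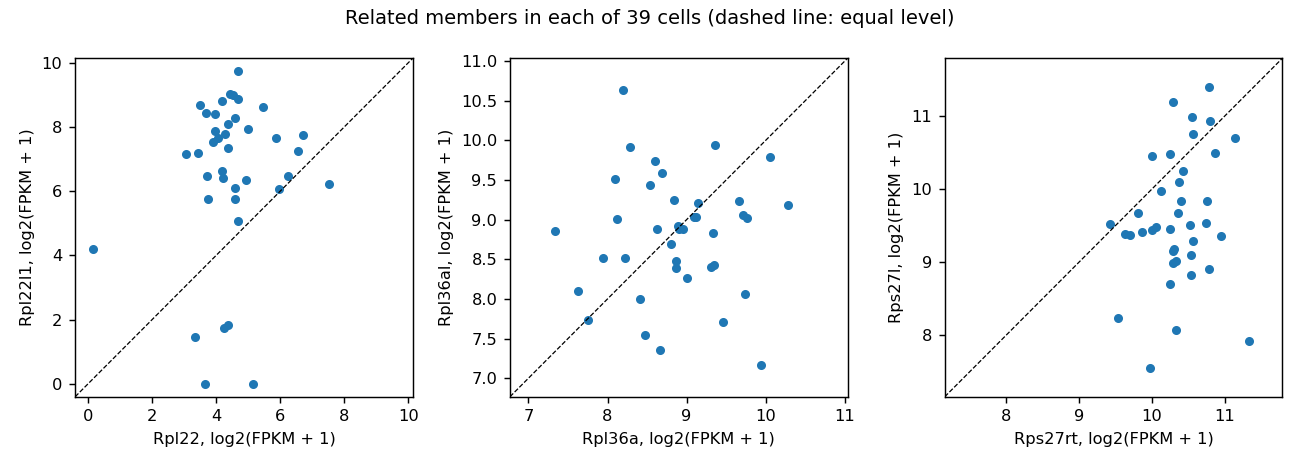
Values of 3 pairs of related ribosomal protein rows in each of the 39 cells as log2(FPKM + 1), with a dashed line of equal level. Rpl22l1 is above Rpl22 in 33 cells, Rpl36a and Rpl36al scatter about the line with 23 cells on one side and 16 on the other, and the Rps27rt row is above Rps27l in 31 cells.

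Rpl36a on chromosome X and Rpl36al on chromosome 12 were at about the same level. Rpl36a averaged 521 ± 250 FPKM, from 160 through a median of 465 to 1243 FPKM. Rpl36al averaged 507 ± 279 FPKM, from 143 through a median of 471 to 1589 FPKM. Rpl36a was the higher in 23 cells and Rpl36al in 16, and their rho over cells was 0.0508. Rpl36al was highest in cell 79, the cell with the lowest share of the family. Their coding sequences of 321 bases agree at 87.9% of positions, and the first 150 bases are shown with the differing ones in capitals.
Rpl36a: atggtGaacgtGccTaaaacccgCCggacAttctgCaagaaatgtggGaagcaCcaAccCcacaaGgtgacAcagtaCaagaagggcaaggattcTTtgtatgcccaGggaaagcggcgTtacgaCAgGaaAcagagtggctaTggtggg
Rpl36al: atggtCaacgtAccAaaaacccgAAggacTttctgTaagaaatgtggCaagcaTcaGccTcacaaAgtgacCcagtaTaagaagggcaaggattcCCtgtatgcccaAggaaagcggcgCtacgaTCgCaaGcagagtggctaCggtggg

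The differences were spread along the sequence. The remaining copy rows were low. Rpl37rt averaged 28.99 FPKM against 526 FPKM for Rpl37, differs from its coding sequence at 1 of 294 bases, and had a rho of 0.951 with it. How counts were divided between Rpl37rt and Rpl37 is not given, so these are values of rows and not levels of genes. Rps4l averaged 30.3 FPKM against 1325 FPKM for Rps4x, matches its coding sequence at 80.1% of 789 aligned bases and had a rho of 0.0187 with it. Rpl7l1, a protein of ribosome assembly, averaged 104 FPKM against 1955 FPKM for Rpl7, with a rho of 0.171. Rpl3, Rpl10 and Rpl39 averaged 1993, 1247 and 586 FPKM beside copies at 0 in all cells.

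Introns of ribosomal protein genes host small nucleolar RNAs, which guide the modification of ribosomal RNA. The table has 33 such rows inside 23 members, and 22 of them were at 1 FPKM or more in no cell, the others in at most 4 cells. The 4 microRNA rows inside members reached 1 FPKM in no cell. Whether these libraries capture such small RNAs was not tested, so the values do not show that they are absent from the cells.

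Ribosome proteins that the name rule misses were at the level of the members. Fau, made as a fusion with a ubiquitin-like protein, averaged 552 FPKM with a CV of 0.389. Gnb2l1, the scaffold protein also called Rack1, averaged 1456 FPKM with a CV of 0.375. Among elongation factors, Eef1a1 averaged 4871 ± 1925 FPKM, above every member. The 19 initiation factors with a mean of at least 100 FPKM had a median CV of 0.698.

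The share of the family was set beside other features of the cells. Its rho over 39 cells was -0.321 with the number of genes detected in the cell. Cells with more genes detected thus tended to hold a smaller share. This rho was -0.381 without cells 9 and 79, and -0.531 without cells 79 and 96, which were left out because of their low shares. With depth the rho of the share was -0.278, and -0.323 and -0.395 without the same pairs of cells. With the mean log2 level of 11 proliferation genes it was -0.252, and -0.297 and -0.428 without these pairs. With the share of oxidative phosphorylation genes it was 0.339, and with the summed FPKM of the cell 0.313. It was 0.189 with the mean log2 level of the 6 p53 readout genes and -0.00223 with Myc, a known activator of ribosome production. Shares of a fixed total are tied to each other, and the number of genes detected also depends on depth and capture.

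Outside the family, the 10 of 789 rows with a mean of at least 100 FPKM whose level was most like the members' log2 shares, added up in each of the 39 cells, were led by Rpl34-ps1, with a rho of 0.683. This sum gives members of low level more weight than the share of summed FPKM does, with which the rho of Rpl34-ps1 was 0.568. Gm12191 followed with 0.529 and Gm15772 came 6th with 0.468, so 3 of the 10 are the rows that lie at a member's locus. Pabpc1, the poly(A)-binding protein and itself a TOP message, had 0.519. Nop10 and Nhp2, proteins of the particles that modify ribosomal RNA, had 0.487 and 0.458. Mif, Ndufb11, Arl8b and Uqcr11 had between 0.458 and 0.481. With the share of summed FPKM, rho was slightly higher for Gm15772 and Uqcr11, at 0.494 and 0.478, and lower for the other rows. It was 0.128 for Nhp2, 0.192 for Arl8b, 0.247 for Mif and 0.314 for Nop10.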

How the data were processed

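Sorted single cells were captured on the C1 system, amplified with the SMARTer Ultra Low kit, made into Nextera XT libraries and sequenced as paired ends. The submitters' processing notes name bcl2fastq 1.8.4, TopHat2 2.0.14 and the builds mm10 and GRCm38. The counting tool and the annotation release are not given in the sources used here. For each of 39 cells and 25219 genes, the authors deposited an FPKM value and an estimated count. FPKM was used as deposited, with 1 FPKM as detection limit and pseudocount. Estimated counts served for depth, pairs of rows and, rounded, thinning to 600000. No count model was fitted, since the cells are 1 biological sample. No molecular identifiers are stated, so counting limits cover counting error only.

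Shares, CVs and Spearman's rho were computed in Python 3.11.15 with pandas 2.3.3 and SciPy 1.17.1, after tests on simulated data. Start windows came from RefSeq, and coding sequences from GENCODE M21 with Biopython 1.88. The members and lists were chosen with earlier results of these data known. Named were the 10 highest members, the 5 with the lowest and highest CV, members below 1 FPKM in most cells, copies with their partners, Rpl5, Rpl11, Rpl23, Rps27l, Rpsa, the Rplp genes and the 10 outside rows most like the members' summed log2 shares. The rows at a shared locus, Rps15a and other genes named beside these were chosen after their values were seen. Some genes that these rules name are not reported here.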

Additional observations from a re-analysis of the deposited data

How the results depend on the processing

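Of 39 alternative values, 35 stayed within 1 SD of the reported value, and 4 moved further. With estimated counts in place of FPKM, the share of the family was 8.06% and the small to large ratio 0.694. With the median over members in place of the sum, the small to large ratio was 1.49, above 1 where the sums are below it. Without Rps19bp1 and the copy names, the number of members detected per cell was 78. For the share, ratio and detection the SD was that over cells, for the spread measures that over members, and for rho that over pairs, so large movements of the last ones can still fall within it. Leaving out cells 79 and 96 and summing rows at a shared locus were chosen after seeing the data. No paired analysis was possible because all cells form 1 group. Single cells without molecular identifiers lose messages before amplification, so a low value in cell 9, with the fewest counts, cannot be told apart from a loss in capture. Detection at this depth limits statements on copies at 0.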
